A study of Mus musculus with 6 samples.

Results

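The 10 genes described here encode the core subunits of AMPA and NMDA receptors, namely Gria1 to Gria4 for AMPA receptors and Grin1, Grin2a to Grin2d and Grin3a for NMDA receptors. They were taken by a rule that uses gene names and no measured values, as the rows of the deposited gene table whose symbol is one of these 10, out of 38087 genes. All 10 were in the table and all 10 passed the filter on low counts, which 16337 genes passed. The table comes from RNA-seq of the brain, with a single library for each of 3 wild-type (WT) mice and 3 Sgo1-/+ mice. All mice were of the C57BL6 background and 24 months old, and the Sgo1-/+ mice carried 1 intact allele of Sgo1, which encodes shugoshin 1, a protector of cohesin at the centromere. The tissue was the cerebrum, including cortex and hippocampus, and the dissection was meant to exclude cerebellum, medulla and olfactory bulb. Males gave WT replicate 1 and Sgo1-/+ replicate 2, and females gave the rest. Every WT library belonged to sequencing run 258 and every Sgo1-/+ library to run 259, and the effects of genotype and run therefore cannot be told apart. Each library held between 11123917 and 12505561 estimated counts in all. Sgo1 itself had 0 to 7 estimated counts in every library, too few to check the genotype.

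AMPA and NMDA receptors are glutamate-gated cation channels of excitatory synapses, each built from 4 subunits. AMPA receptors combine GluA1 to GluA4 (Gria1 to Gria4) and carry most of the fast current, and RNA editing of a single glutamine codon in Gria2, the Q/R site, makes channels that hold GluA2 nearly impermeable to calcium. NMDA receptors need the obligatory GluN1 (Grin1), which binds the co-agonist glycine or D-serine, together with glutamate-binding GluN2 subunits, of which GluN2A and GluN2B (Grin2a and Grin2b) prevail in the adult forebrain and GluN2C (Grin2c) in cerebellar granule cells, whereas GluN3A (Grin3a) is a glycine-binding subunit that lowers calcium flow.

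The Q/R codon and its surroundings were read from the annotated transcripts because they show how alike the AMPA genes are at the site that sets calcium flow. Each stretch holds 51 bases in the sense direction, 5′ to 3′, from the GENCODE M21 transcripts Gria1-201, Gria2-201, Gria3-201 and Gria4-201, and the capitals mark the Q/R codon.
Gria1: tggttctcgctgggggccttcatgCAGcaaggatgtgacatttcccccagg
Gria2: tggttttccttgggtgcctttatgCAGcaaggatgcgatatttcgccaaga
Gria3: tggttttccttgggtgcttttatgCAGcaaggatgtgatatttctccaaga
Gria4: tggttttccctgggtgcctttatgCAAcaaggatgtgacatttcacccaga
The capitals are codon 600 of Gria1, 607 of Gria2, 612 of Gria3 and 608 of Gria4, counted from the start codon. All 4 genes encode glutamine there in the genome. The Gria2 and Gria3 stretches differed at 3 of 51 bases and those of Gria1 and Gria2 at 10. Over their whole translated reading frames the AMPA subunits shared between 67.4 and 72.7% of aligned residues pairwise, the GluN2 subunits between 43.7 and 55.1%, and an AMPA and an NMDA subunit between 24.6 and 28.2%. Gene counts hold no bases, so the edited fraction at the Q/R site was not analysed here.

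WT replicate 1 stood apart from the other libraries before any comparison of genotypes. Its mean correlation with the other libraries, over log2 CPM of all tested genes, was 0.935, whereas the other libraries had values between 0.967 and 0.970. For 9 of the 10 receptor genes its value lay outside the range of the other 5 libraries, 6 times below and 3 times above. Over all genes tested this was so for 58.3%, with 4586 genes above and 4938 below. The comparisons of the receptor genes are therefore given with and without WT replicate 1.

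Neither with nor without that library did a receptor gene differ between Sgo1-/+ and WT after adjustment over all genes. By the quasi-likelihood test of edgeR and Benjamini-Hochberg adjustment, all 10 had an adjusted p of 0.9999, and with WT replicate 1 left out all 10 had an adjusted p of 0.9995. The share of all tested genes called at an adjusted p under 0.05 was 0.00%. The share with an unadjusted p under 0.05 was 2.04%, which is 333 genes and 0 of the 10 receptor genes. DESeq2's Wald test called 3 genes and limma called 0, none of them a receptor gene. The normalized counts of the groups did not overlap for 6.85% of all genes and for 0 of the 10. The median log2 fold change of the receptor genes was 0.09, beside 0.00 for all genes, with 6 fold changes above 0 and 4 below. Without WT replicate 1 it was -0.05, beside 0.01 for all genes, with 2 above 0 and 8 below. The median size of the log2 fold change was then 0.06 for the receptor genes and 0.13 for all genes.

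**Figure D1:**
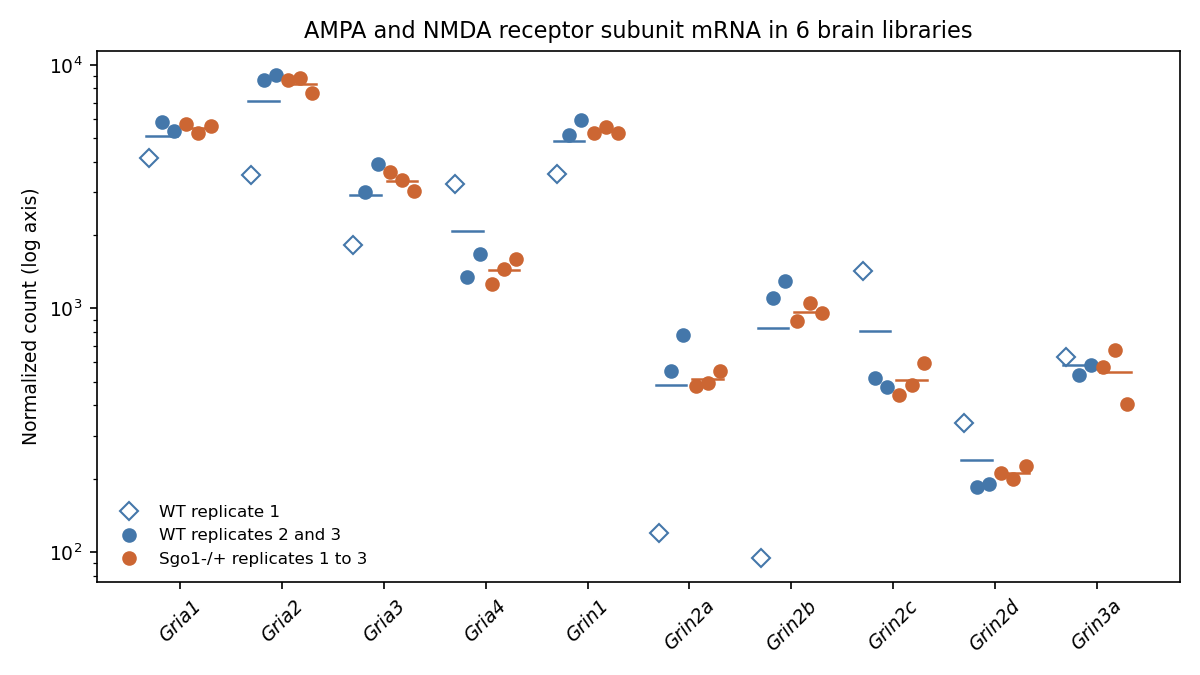
Normalized counts (log axis) of the 10 receptor genes in each library, with a horizontal line at each group's mean. The open diamond of WT replicate 1 lies far below the other points for Grin2a (120 against 481 to 777) and Grin2b (94.8 against 891 to 1301) and above them for Gria4 and Grin2c, while the other 5 libraries lie close together.

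Among the AMPA subunits, Gria1 (chr11:57011387-57330244, plus strand, mm10 as are all gene coordinates here) encodes GluA1, a subunit that is inserted into synapses during long-term potentiation. Its normalized counts, which are estimated counts scaled to a common library size, were 4137, 5833 and 5367 in WT and 5735, 5256 and 5587 in Sgo1-/+, here and below in the order of the replicate numbers. WT replicate 1 was the lowest of all libraries and the other 5 lay within a log2 range of 0.15, the narrowest among the receptor genes. The group means were 5112 ± 876 (SD, n = 3) in WT and 5526 ± 245 in Sgo1-/+, with overlap between the groups. The log2 fold change was 0.11 ± 0.154 (SE) and -0.02 ± 0.10 without WT replicate 1.

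Gria2 (chr3:80684936-80802791, minus strand) encodes GluA2, the subunit edited at the Q/R codon shown above. Normalized counts of Gria2 were 3535, 8670 and 9089 in WT and 8645, 8799 and 7626 in Sgo1-/+. WT replicate 1 had 0.408 times the median of the other 5 libraries, which differed among themselves by a log2 range of 0.25. In a bulk sample, fewer cells that express a gene and less RNA per cell cannot be told apart. The means of 7098 ± 3093 in WT and 8357 ± 638 in Sgo1-/+ (SD, n = 3) came from overlapping groups. Gria2's log2 fold change had opposite signs, going from 0.24 ± 0.338 (SE) to -0.09 ± 0.107 without WT replicate 1.

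Gria3 (chrX:41400854-41678601, plus strand) encodes GluA3, which forms receptors with GluA2. Normalized counts of Gria3 were 1825, 2994 and 3915 in WT and 3641, 3350 and 3031 in Sgo1-/+. WT replicate 1 was again the lowest, and the highest and next-lowest libraries were both WT, so that the Sgo1-/+ libraries lay inside the WT range. The means were 2911 ± 1047 in WT and 3341 ± 305 in Sgo1-/+ (SD, n = 3). On the log2 scale the fold change was 0.20 ± 0.265 (SE), and -0.05 ± 0.142 without WT replicate 1.

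Gria4 (chr9:4417899-4796234, minus strand) encodes GluA4, a subunit of fast-gating receptors found in cerebellum, brain stem and interneurons. It went the other way in WT replicate 1. Its normalized counts were 3235, 1352 and 1674 in WT and 1264, 1455 and 1601 in Sgo1-/+. WT replicate 1 had 2.22 times the median of the other libraries, among which WT and Sgo1-/+ values were interleaved. The means were 2087 ± 1007 (SD, n = 3) in WT and 1440 ± 169 in Sgo1-/+. The log2 fold change of -0.54 ± 0.319 (SE) became -0.07 ± 0.139 without WT replicate 1.

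Exact permutation tests (two-sided, 20 possible groupings of the libraries) gave p = 0.7 for Gria1, 0.9 for Gria2, 0.6 for Gria3 and 0.4 for Gria4, where 0.1 is the smallest p that 3 against 3 allows.

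Of the NMDA receptor genes, Grin1 (chr2:25291181-25319187, minus strand) encodes the obligatory GluN1. Its normalized counts were 3575, 5135 and 5921 in WT and 5233, 5578 and 5228 in Sgo1-/+. WT replicate 1 was lowest, at 0.683 times the median of the other libraries, and the Sgo1-/+ values lay between those of WT replicates 2 and 3. Group means were 4877 ± 1194 in WT and 5346 ± 201 in Sgo1-/+ (SD, n = 3). For Grin1 the log2 fold change was 0.13 ± 0.193 (SE), and -0.05 ± 0.106 without WT replicate 1. Exons of the antisense gene Grin1os overlap 13.47% of the exon bases of Grin1. Grin1os had 472 to 644 estimated counts, and whether counting used the strand is not given in the sources used here.

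Grin2a (chr16:9577710-9994921, minus strand) encodes GluN2A, which takes over from GluN2B in many forebrain synapses as the brain matures. The 6 libraries had 120, 556 and 777 normalized counts in WT and 481, 495 and 556 in Sgo1-/+. WT replicate 1 had 0.217 times the median of the other libraries. Of the rest, WT replicate 3 was highest and WT replicate 2 was nearly equal to the highest Sgo1-/+ library. The group means, 484 ± 334 in WT and 511 ± 40.1 in Sgo1-/+ (SD, n = 3), gave a log2 fold change of 0.08 ± 0.563 (SE).

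Grin2b (chr6:135729826-136173511, minus strand) encodes GluN2B, the subunit of slowly closing NMDA receptors. It varied most of the 10 genes. Its normalized counts were 94.8, 1100 and 1301 in WT and 891, 1052 and 959 in Sgo1-/+. WT replicate 1 had 0.0901 times the median of the other libraries, and the log2 range of 3.78 over all libraries fell to 0.55 without it. WT replicates 2 and 3 were both above all Sgo1-/+ libraries. The means were 832 ± 646 in WT and 968 ± 80.7 in Sgo1-/+ (SD, n = 3), and the log2 fold change was 0.22 ± 0.755 (SE).

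Both genes turned sign without WT replicate 1 and then had an unadjusted p under 0.05. The WT mean became 666 for Grin2a and 1200 for Grin2b, which puts the Sgo1-/+ mean at 0.767 and 0.806 times the WT mean. The edgeR log2 fold changes were -0.38 ± 0.159 (SE) for Grin2a and -0.31 ± 0.118 for Grin2b. In edgeR's quasi-likelihood test the unadjusted p-values were 0.0458 and 0.0326, and the exact permutation test of 2 against 3 libraries cannot go below 0.1. These 2 of 10 receptor genes stand beside 3.77% of all genes with an unadjusted p under 0.05 in the same fit, and neither passed the adjustment. The groups no longer overlapped for Grin2b and Grin2d, which is 2 of 10 beside 18.0% of all genes. In the same 5 libraries marker lists of other cells differed as well. Of 10 oligodendrocyte genes, 9 had an unadjusted p under 0.05, with a median log2 fold change of 0.75, and of 8 olfactory bulb genes, 7 had one, with a median of -2.03. Their part in the values of Grin2a and Grin2b was not tested.

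Grin2c (chr11:115249169-115267243, minus strand) encodes GluN2C, whose receptors are weakly blocked by magnesium. Its normalized counts were 1421, 516 and 477 in WT and 442, 483 and 595 in Sgo1-/+. WT replicate 1 had 2.94 times the median of the other libraries, and the other WT libraries lay within the Sgo1-/+ range. The means were 804 ± 534 in WT and 507 ± 79.4 in Sgo1-/+ (SD, n = 3). The log2 fold change of -0.67 ± 0.425 (SE) was the largest in size among the 10 genes, and it was 0.03 ± 0.148 without WT replicate 1.

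Grin2d (chr7:45831883-45870928, minus strand) encodes GluN2D, a subunit of interneurons and of the diencephalon and brain stem. Normalized counts of Grin2d were 339, 185 and 191 in WT and 211, 200 and 225 in Sgo1-/+. WT replicate 1 was highest, and WT replicates 2 and 3 were below all Sgo1-/+ libraries. Means of 238 ± 87.4 in WT and 212 ± 12.6 in Sgo1-/+ (SD, n = 3) gave a log2 fold change of -0.17 ± 0.254 (SE). Without WT replicate 1 it was 0.18 ± 0.142, with an unadjusted p of 0.248 in edgeR's quasi-likelihood test.

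Grin3a (chr4:49661611-49845744, minus strand) encodes GluN3A. It was the only receptor gene for which WT replicate 1 lay within the range of the other libraries. Its normalized counts were 633, 532 and 587 in WT and 574, 672 and 405 in Sgo1-/+. Sgo1-/+ replicates 2 and 3 were the highest and the lowest of all. The means were 584 ± 50.5 in WT and 550 ± 135 in Sgo1-/+ (SD, n = 3), with a log2 fold change of -0.08 ± 0.193 (SE), and -0.02 ± 0.202 without WT replicate 1.

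For the NMDA receptor genes the same exact permutation test gave p = 0.7 for Grin1, 0.9 for Grin2a, 1.0 for Grin2b and Grin2d, 0.6 for Grin2c and 0.8 for Grin3a.

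**Figure D2:**
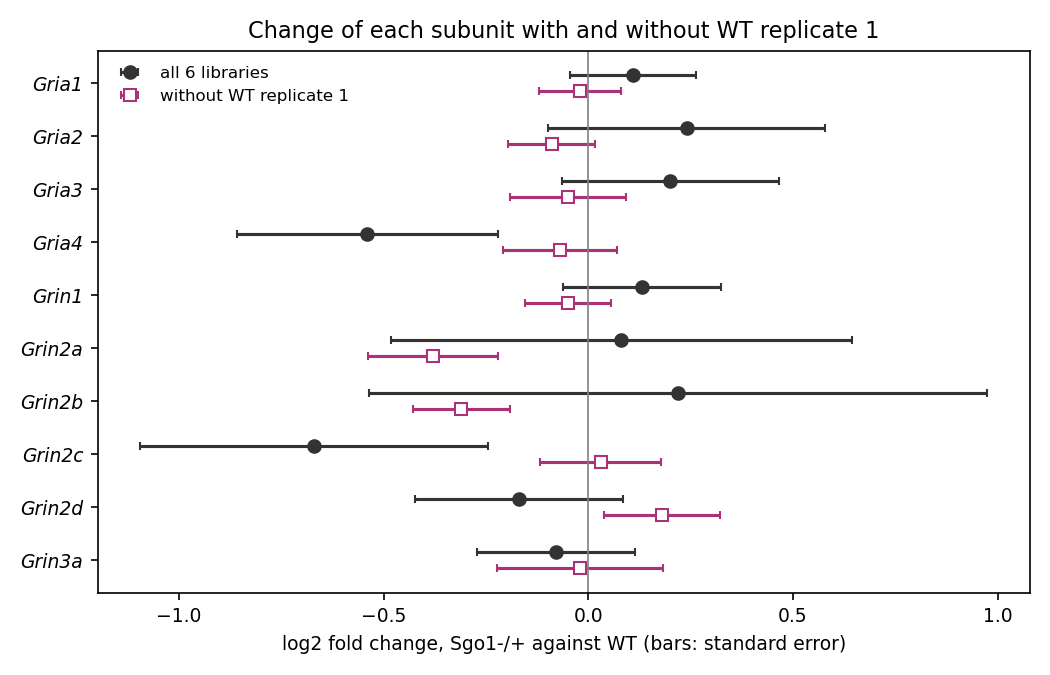
Log2 fold change of each receptor gene, Sgo1-/+ against WT, from edgeR, with all 6 libraries (filled circles) and without WT replicate 1 (open squares). Bars are standard errors. Of the 10 fold changes, 8 lie on the other side of 0 once WT replicate 1 is left out, and the bars of Grin2b shrink from 0.755 to 0.118.

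Levels of different genes were compared as CPM per kb of exon. In Sgo1-/+ the order was Gria1 with 75.8 ± 3.36 (SD, n = 3), Gria2 with 57.6 ± 4.40, Grin1 with 45.7 ± 1.71, Gria3 with 28.1 ± 2.56 and Gria4 with 18.9 ± 2.22. These 5 genes had the same order in each Sgo1-/+ library and in WT replicates 2 and 3. The levels of the remaining genes in Sgo1-/+ were 9.72 ± 0.810 for Grin2b, 8.34 ± 1.31 for Grin2c, 5.66 ± 0.444 for Grin2a, 3.71 ± 0.912 for Grin3a and 2.79 ± 0.166 for Grin2d. Grin2b and Grin2c did not differ beyond their spread, since Grin2c was above Grin2b in Sgo1-/+ replicate 3, and neither did Grin3a and Grin2d, which also changed places there. Grin2a was above Grin2c in WT replicate 3. In WT replicate 1 the order was another one. Gria1 came first with 56.7, then Gria4 with 42.5, Grin1 with 30.5, Gria2 with 24.4 and Grin2c with 23.4, and Grin2b came last with 0.952. The order depends on the length used. Per kb of coding sequence, Gria2 was the highest gene in the other 5 libraries (261 ± 19.9 CPM per kb in Sgo1-/+) and Gria1 had 168 ± 7.47 in Sgo1-/+. The deposited spans of Gria2, Gria4, Grin2a, Grin2b and Grin2d are shorter than in GENCODE M21 (for Grin2b, 8249 bases of exon in place of 24842, and for Gria4, 6302 in place of 6305), and only exons within the deposited span were counted as length.

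Shares of each subunit in its receptor family were computed in each library from these levels per kb. Per kb of exon, the share of Gria1 in the AMPA sum was alike in all libraries, at 40.8, 43.8 and 38.5% in WT and 42.4, 40.0 and 43.6% in Sgo1-/+. The share of Gria2 was 17.5, 32.7 and 32.8% in WT and 32.1, 33.7 and 29.9% in Sgo1-/+. That of Gria4 was 30.6, 9.73 and 11.5% in WT and 8.96, 10.6 and 12.0% in Sgo1-/+. Per kb of exon, WT replicate 1 thus had less Gria2 than Gria4, and each of the other 5 libraries had more Gria2 than Gria4. Gria3 took 11.0, 13.8 and 17.2% in WT and 16.5, 15.6 and 14.5% in Sgo1-/+. The differences between the group means, Sgo1-/+ minus WT, were 0.978 percentage points for Gria1, 4.24 for Gria2, 1.54 for Gria3 and -6.76 for Gria4. Without WT replicate 1 they were 0.873, -0.831, 0.0554 and -0.0973 percentage points. The exact permutation p over all 6 libraries was between 0.5 and 0.7 for these shares. The AMPA shares depend on the length used. Per kb of coding sequence, Gria1 took 32.1% in WT replicate 1 and 26.3 to 30.8% in the other libraries. Gria2 then took more than Gria4 in WT replicate 1 too, at 28.2 and 25.2%.

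The GluN2 sum was made up differently in WT replicate 1 as well. Grin2b took 3.16, 39.3 and 40.8% of it in WT and 36.8, 39.7 and 33.7% in Sgo1-/+. Grin2a took 4.43, 21.9 and 26.9% in WT and 21.9, 20.6 and 21.6% in Sgo1-/+. Grin2c took 77.6, 30.2 and 24.5% in WT and 29.9, 29.9 and 34.3% in Sgo1-/+. Grin2c took the most in WT replicate 1, and in no other library did it take more than 34.3%. That value, in Sgo1-/+ replicate 3, was also the largest share there, beside 33.7% for Grin2b. In the remaining libraries Grin2b took the most. The shares depend on the length used. Per kb of coding sequence Grin2c took 74.0% in WT replicate 1 and 19.9 to 28.6% in the other libraries. With exons outside the deposited spans added to the length, an alternative chosen after seeing the data, it took 82.1% and 43.2 to 53.3%, the largest share in every library. The counts were deposited for the shorter spans, so this alternative adds length without counts and lowers the levels of Grin2a and Grin2b. Its shares are therefore no measure of which GluN2 gene led. The differences, Sgo1-/+ minus WT, were then 1.99 percentage points for Grin2a, 4.04 for Grin2b, -8.24 for Grin2c and 2.20 for Grin2d. Grin2d took 14.8, 8.65 and 7.83% in WT and 11.4, 9.89 and 10.4% in Sgo1-/+. Within the deposited spans the differences were 3.63 percentage points for Grin2a, 8.98 for Grin2b, -12.7 for Grin2c and 0.133 for Grin2d, with an exact permutation p between 0.8 and 1.0. Without WT replicate 1 they were -3.02, -3.32, 4.02 and 2.32 percentage points. The Grin2d share then did not overlap between the groups, and its exact permutation p of 0.1 is the smallest that 2 against 3 allows.

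**Figure D3:**
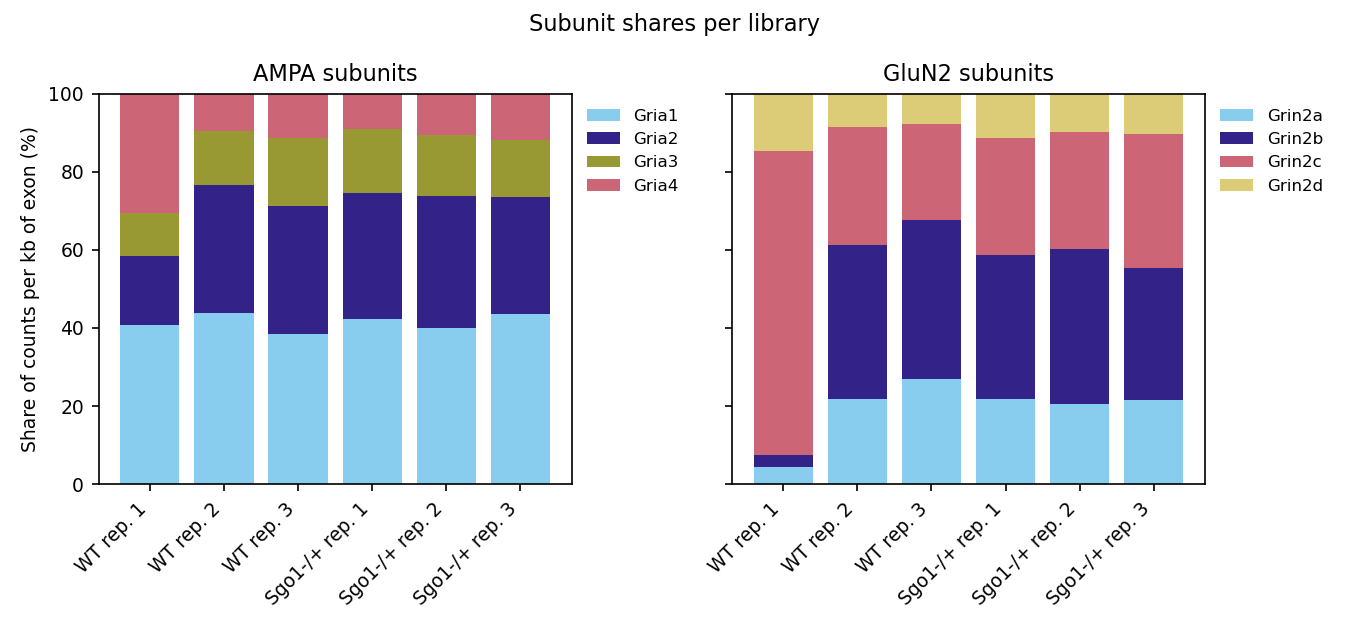
Share (%) of each subunit in the sum of the AMPA genes (left) and of the GluN2 genes (right) in each library, from counts per kb of exon. The bars of 5 libraries look alike, and WT replicate 1 differs by a larger share of Gria4 (30.6%) and of Grin2c (77.6%) and smaller shares of Gria2 (17.5%), Grin2a (4.43%) and Grin2b (3.16%).

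Although its makeup differed, the GluN2 sum per kb of exon within the deposited spans did not stand apart in WT replicate 1. It was 30.1, 28.1 and 32.0 CPM per kb in WT and 24.3, 26.6 and 28.6 in Sgo1-/+. The log2 ratio of this sum to Grin1 did stand apart, at -0.02 in WT replicate 1 beside -0.88 to -0.64 in the other libraries. GluN2 sums with other lengths are not given here. The AMPA sum was lowest in WT replicate 1, at 139 CPM per kb, against 176 to 191 elsewhere. The log2 ratio of the AMPA to the NMDA sum was 1.17 ± 0.0913 in WT and 1.25 ± 0.0849 in Sgo1-/+ (SD, n = 3), with an exact permutation p of 0.4. The log2 ratio of Grin2a to Grin2b was 0.49, -0.84 and -0.60 in WT and -0.75, -0.95 and -0.64 in Sgo1-/+. Outside WT replicate 1, Grin2b was thus above Grin2a by a similar ratio in both groups, and the mean difference without that library was -0.06. The log2 ratio of Grin2c to Grin2b was 4.62 in WT replicate 1, far from the values of -0.74 to 0.02 elsewhere.

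Of all shares tested, only that of Grin1 in the sum of all NMDA genes did not overlap between the groups with all 6 libraries. It was 47.0, 58.0 and 58.4% in WT and 61.3, 60.5 and 58.8% in Sgo1-/+, so every Sgo1-/+ library was above every WT library. The means were 54.5 ± 6.47% and 60.2 ± 1.28% (SD, n = 3), and the exact permutation p of 0.1 is the smallest the design allows. The p was not adjusted for the number of shares. Without WT replicate 1 the difference of 5.69 percentage points was 1.96, with an exact permutation p of 0.2. The groups then overlapped neither for Grin1 nor for the Grin2a, Grin2b and Grin2d shares of the NMDA sum. The differences of those shares were -1.58, -2.07 and 0.628 percentage points. With all 6 libraries, the Grin1 share also did not overlap per kb of coding sequence. It did overlap with exons outside the deposited spans added to the length, which adds length without counts. With those exons the Grin2d share of the GluN2 sum did not overlap instead, at 14.8, 13.5 and 13.1% in WT and 17.4, 15.3 and 15.3% in Sgo1-/+. Grin3a took 6.58, 4.75 and 4.58% of the NMDA sum in WT and 5.31, 5.75 and 3.60% in Sgo1-/+, with an exact permutation p of 0.7.

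Marker genes of brain regions moved with the receptor genes in WT replicate 1. All 10 genes of the cerebellar granule cell list were highest in that library, and their summed level was 1429 CPM, beside 60.3 to 154 in the other libraries. All 7 Purkinje cell genes were highest there, with a median log2 ratio of 4.22 beside -0.75 to 0.25. Their sum was 2368 CPM beside 812 to 1047. Most of that sum came from Itpr1, at 17717 normalized counts beside 9523 to 12049. Of 17 brain stem genes 16 were highest there, with a sum of 178 CPM beside 4.18 to 6.15. None of the 17 was at 0 in WT replicate 1, and between 4 and 11 were at 0 in each of the other libraries. Of 11 cortex genes 9 were lowest in WT replicate 1 (564 CPM in sum beside 1453 to 1747), as were all 12 striatum genes. The hippocampus and thalamus lists did not stand apart there by their medians. Their median log2 ratios of -0.04 and 0.20 lay within the range of the other libraries. By summed level, the hippocampus list was lowest there, at 256 CPM beside 368 to 468. The thalamus list was highest there, at 503 CPM beside 152 to 500. Of 11 hippocampus genes 5 were lowest and 1 was highest there, and of 11 thalamus genes 4 were lowest and 3 highest. The general neuron genes went both ways in WT replicate 1, where 5 of 12 were highest and 6 were lowest of all libraries. Of the glial lists, that of astrocytes moved there too. Of 10 astrocyte genes 7 were highest in WT replicate 1, with a median log2 ratio of 0.42 beside -0.14 to 0.09 in the other libraries. Of 10 oligodendrocyte genes 6 were highest there, but their median of 0.67 lay within the range of the other libraries, -0.60 to 0.75. The part of these regions and cells in the receptor values of WT replicate 1 was not tested.

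**Figure D4:**
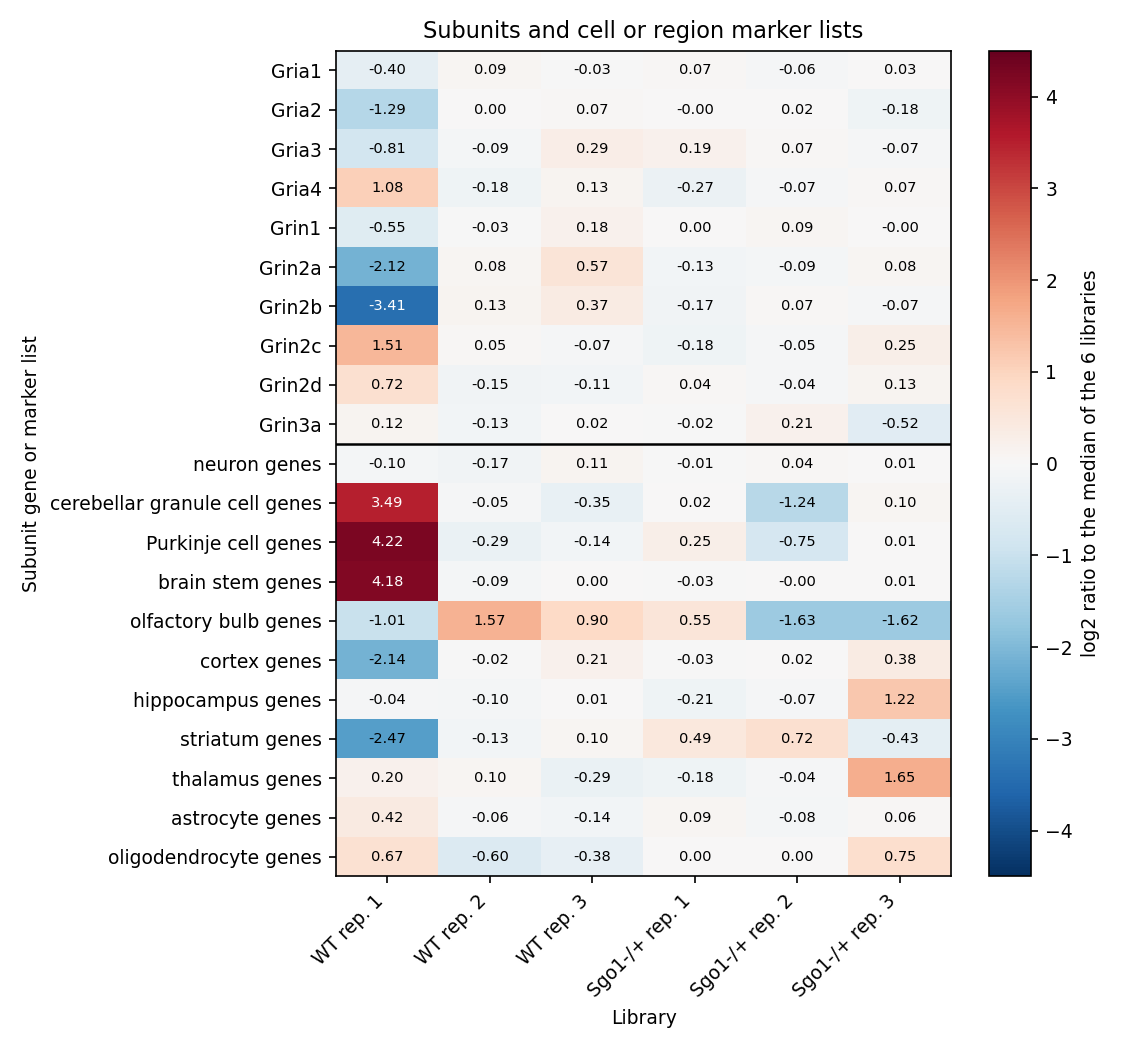
Log2 ratio of each receptor gene (above the line) and median log2 ratio of each marker list (below the line) to the median of the 6 libraries, one column per library. In WT replicate 1 the granule cell, Purkinje cell and brain stem lists stand at 3.49, 4.22 and 4.18 and the cortex and striatum lists at -2.14 and -2.47, beside -3.41 for Grin2b and 1.51 for Grin2c.

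RefSeq promoters (GRCm38.p6), from 250 bases before to 50 after the annotated start, were given for 5 of the 10 genes. Those of Gria4 and Grin2c, both highest in WT replicate 1, and of Gria2, lowest there, are shown 5′ to 3′ on the strand of the gene, because among the genes with a promoter given these shares moved far in that library. Capitals mark the GC box, searched as GGGCGG on both strands.
Gria2 promoter, chr3:80802786-80803085, minus strand: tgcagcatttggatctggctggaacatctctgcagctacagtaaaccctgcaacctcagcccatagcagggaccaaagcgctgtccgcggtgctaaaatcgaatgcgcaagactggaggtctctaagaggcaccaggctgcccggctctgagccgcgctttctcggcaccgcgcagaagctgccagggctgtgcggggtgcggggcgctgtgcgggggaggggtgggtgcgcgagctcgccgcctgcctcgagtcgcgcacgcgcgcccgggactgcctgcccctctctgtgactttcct
Gria4 promoter, chr9:4796185-4796484, minus strand: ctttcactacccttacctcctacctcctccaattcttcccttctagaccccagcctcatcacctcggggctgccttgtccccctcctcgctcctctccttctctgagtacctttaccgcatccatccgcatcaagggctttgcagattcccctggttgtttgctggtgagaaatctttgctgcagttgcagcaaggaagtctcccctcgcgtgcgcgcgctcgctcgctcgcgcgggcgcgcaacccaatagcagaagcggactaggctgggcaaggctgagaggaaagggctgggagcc
Grin2c promoter, chr11:115267194-115267493, minus strand: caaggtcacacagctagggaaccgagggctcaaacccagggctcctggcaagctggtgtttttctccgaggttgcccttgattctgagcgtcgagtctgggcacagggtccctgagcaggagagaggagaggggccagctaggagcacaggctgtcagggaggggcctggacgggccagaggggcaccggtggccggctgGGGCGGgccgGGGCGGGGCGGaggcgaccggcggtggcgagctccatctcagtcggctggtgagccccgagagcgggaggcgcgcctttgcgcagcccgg
The Grin2c promoter holds 3 GC boxes, of which 2 overlap, and 70.0% G and C, and those of Gria2 and Gria4 hold no GC box, with 65.7 and 59.7% G and C. Of 32851 promoters, 35.7% hold a GC box, and the median content of G and C was 52.7%. The letters TGACGTCA and TATAAA, searched on both strands, are in 1.79 and 13.6% of all promoters and in none of these 3. The promoters of Grin1, lowest in WT replicate 1, and Grin2d, highest there, are not shown and hold 1 and 0 GC boxes.

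Other genes that followed a receptor gene over the 6 libraries were ranked by the root mean square distance between log2 values centered on their median. It was computed for the 6 receptor genes that spanned more than 1 on the log2 scale, and since WT replicate 1 makes most of that span, the distances largely describe that library. Nearest to Gria2 were Add2 (0.038), Plxna2 (0.047) and Jakmip1 (0.051). Dnalc4, Ift57 and Aqp11 lay nearest to Gria3, at 0.066 to 0.067. Nearest to Gria4 were Boc (0.088), Nacc2 (0.092) and Npepl1 (0.097). Grin2b was closest to Zfp831 (0.137), Pde1a and Kcnf1. For Grin2c they were Tbc1d4 (0.072), Plekhh3 (0.090) and Metrn (0.093). Among the receptor genes themselves, Gria4 was closest to Grin2d (0.220), Grin2c to Gria4 (0.229) and Grin2b to Grin2a (0.538).

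Partners of the receptors were described by lists of related genes, and none of their genes had an adjusted p under 0.05 in edgeR's quasi-likelihood test. Of the 18 auxiliary subunits of AMPA receptors, which set their traffic and gating, 0 were higher and 2 were lower in Sgo1-/+ at an unadjusted p under 0.05, beside 2.04% of all genes. The median log2 fold change of the list was 0.24, and 0.03 without WT replicate 1. Shisa8, listed as AI848285, had normalized counts of 181, 249 and 154 in WT and 87.9, 35.7 and 25.8 in Sgo1-/+, without overlap. In edgeR the log2 fold change of Shisa8 was -1.96 ± 0.466 (SE) and its unadjusted p 0.00413. Cacng5, a transmembrane AMPA receptor regulatory protein, had 375, 634 and 464 in WT and 362, 245 and 236 in Sgo1-/+, again without overlap, and a log2 fold change of -0.81 ± 0.249. Without WT replicate 1, which was the lowest WT library for Cacng5 and lay between the other WT libraries for Shisa8, the log2 fold changes were -2.01 for Shisa8 and -0.97 for Cacng5. The olfactory bulb list also differed between these groups of libraries, with median log2 ratios of -1.01, 1.57 and 0.90 in WT and 0.55, -1.63 and -1.62 in Sgo1-/+. Its part in the values of Shisa8 and Cacng5 was not tested. Cnih2 of the same list did not overlap either, but was higher in Sgo1-/+. Its normalized counts were 426, 1496 and 1595 in WT and 1715, 1621 and 1919 in Sgo1-/+. In edgeR the log2 fold change of Cnih2 was 0.58 ± 0.442 (SE), with an unadjusted p of 0.232. Over all genes, the groups did not overlap for 6.85%.

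Of 19 genes that anchor or move the receptors, 1 had an unadjusted p under 0.05, beside 2.04% of all genes. It was Grip2, a PDZ scaffold that binds GluA2 and GluA3. Normalized counts of Grip2 were 442, 538 and 551 in WT and 402, 359 and 381 in Sgo1-/+. Every Sgo1-/+ library was below every WT library. Over all genes, 6.85% had groups without overlap in either direction. For Grip2 the log2 fold change was -0.42 ± 0.127 (SE), with -0.51 without WT replicate 1. The median of the 19 genes was 0.23, and 0.02 without that library. Of 7 genes that supply or remove glycine and D-serine, 6 were tested. At an unadjusted p under 0.05, 1 was higher and 1 was lower in Sgo1-/+, beside 2.04% of all genes. Gldc, of the glycine cleavage system, had 178, 245 and 299 in WT and 327, 357 and 329 in Sgo1-/+, without overlap. Its log2 fold change was 0.49 ± 0.196 (SE), and the unadjusted p of 0.042 in edgeR became 0.0556 without WT replicate 1. Slc6a5, the neuronal glycine transporter, had 2653 normalized counts in WT replicate 1 and 1.01 to 40.6 in the other libraries, and its unadjusted p in edgeR went from 0.0221 to 0.16 without WT replicate 1.

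The other ionotropic glutamate receptor genes, among them those of kainate receptors and Grin3b, held no gene with an unadjusted p under 0.05 among the 7 of 8 tested. The 3 genes of the editing enzyme family had none either. Adarb1, which edits the Q/R codon of Gria2, had normalized counts of 4113, 3126 and 3560 in WT and 2964, 2692 and 4644 in Sgo1-/+, and its log2 fold change was -0.07 ± 0.229 (SE).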

How the data were processed

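RNA-seq of 6 libraries was analysed from 1 gene table. Per the study's methods, alignment was to mm10 in Strand NGS 2.1. The authors deposited unscaled estimated counts per Ensembl gene, of which 47.4 to 48.6% per library are not whole. The submitters' processing notes also name BWA and edgeR. The Ensembl release and the strand setting are not given in the sources used here. Further deposited columns, the authors' normalized values and fold changes, were not used. Groups were taken from the labels. Columns were matched to libraries by the brain numbers 1 to 3 for WT and 4 to 6 for Sgo1-/+ and by the library number within each run. The column names do not repeat the labels, so the replicate numbers rest on that match. Counts of Xist and Ddx3y fitted the labelled sex of all 6 libraries so matched.

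The estimated counts were rounded and fitted with edgeR 4.0.16 in R 4.3.3 (quasi-likelihood test, TMM, default filter, no covariates, Benjamini-Hochberg adjustment over 16337 genes). The SE is the size of the log2 fold change divided by the square root of F. To obtain a normalized count, the estimated count was put over the effective (TMM) library size and brought back to the mean effective size of the 6 libraries, and CPM uses the same scaling. Levels per kb use GENCODE M21 exons within the deposited gene span. The scripts were tested on simulated data. Alternatives were DESeq2 1.42.0, limma 3.58.1 on log2 values with a pseudocount of 1, DESeq2's size factors, library totals only, sex as a covariate, no filter, a minimum of 10 counts in all libraries, a replicate block and leaving out each library. The rule for the receptor genes uses no values, but it and the gene lists were written with earlier results of these data known. Named are the 10 receptor genes, genes of each of the 6 pathway lists with an unadjusted p under 0.05 (at most 5), the 3 nearest genes of receptor genes spanning more than 1 on the log2 scale, Sgo1, and genes with overlapping exons. Adarb1, Cnih2, Itpr1, Grm4, Grm5 and Camk2a were chosen later, with their values known. The genes nearest to Grin2a are not reported here. A count of 0 allows up to 3 counts, and such limits cover counting error only. The p-values judge group differences against the spread between these mice, and they cannot tell genotype and run apart.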

Additional observations from a re-analysis of the deposited data

How the results depend on the processing

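No receptor gene had an adjusted p under 0.05 in any alternative, and their adjusted p ranged from 0.7635 to 1. Over all genes, DESeq2's Wald test called 3 genes in place of 0, and leaving out 1 library gave 0 to 1. Genes with an unadjusted p under 0.05 numbered 563 with no filter, 626 without WT replicate 1 and 1040 without WT replicate 3, in place of 333, and 2 receptor genes had one without WT replicate 1 and 1 without WT replicate 2. Other settings left the sign of the receptor genes' log2 fold changes in 80 of 80 cases, but the size moved, from 0.22 to 0.90 with limma and 0.70 with sex as a covariate for Grin2b and from 0.08 to 0.44 and 0.37 for Grin2a. With library totals only, the median of all genes was -0.06. Leaving out a library turned 9 of 60, of which 8 without WT replicate 1. The log2 fold changes then ranged from -0.02 to 0.22 for Gria1, -0.09 to 0.45 for Gria2, -0.05 to 0.47 for Gria3, -0.05 to 0.30 for Grin1, -0.38 to 0.60 for Grin2a, -0.31 to 0.70 for Grin2b, -0.93 to 0.03 for Grin2c, -0.32 to 0.18 for Grin2d and -0.26 to 0.09 for Grin3a. The differences in share ranged from -0.289 to 2.35 percentage points for Gria1, -0.831 to 6.79 for Gria2, 0.0554 to 3.14 for Gria3, -10.5 to -0.0973 for Gria4, -3.02 to 8.20 for Grin2a, -3.32 to 15.5 for Grin2b, -22.5 to 4.02 for Grin2c, -1.17 to 2.32 for Grin2d and -0.848 to 0.230 for Grin3a. Per kb of coding sequence and with no length correction the difference was -0.469 and -0.434 for Gria1 and -0.534 and -0.97 for Grin2d. The causes were not tested.

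Pairing by replicate number was not seen in the correlations of the deviations of same-numbered libraries, which were -0.146, 0.014 and -0.207. They cannot exclude pairing, because deviations from a mean of 3 libraries depend on one another and WT replicate 1 stood apart. The replicate block called 0 genes and gave 280 genes with an unadjusted p under 0.05. It gave log2 fold changes of 0.39 for Grin2a and 0.75 for Grin2b and changed no call. With 3 libraries a group, differences smaller than the spread between mice were not detectable, also for rarer subunits such as Grin2d at 185 to 339 normalized counts.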

Other observations

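The 7 metabotropic glutamate receptor genes tested, which encode G protein-coupled receptors that tune synapses rather than carry current, held no gene with an unadjusted p under 0.05 in edgeR's quasi-likelihood test. Their median log2 fold change was 0.01, and 0.03 without WT replicate 1. Grm5, a postsynaptic receptor of the forebrain, had normalized counts of 806, 2456 and 3424 in WT and 3121, 3481 and 2419 in Sgo1-/+, so that WT replicate 1 was at 0.258 times the median of the other libraries. Grm4, a presynaptic receptor of cerebellar granule cells, had 1316, 487 and 574 in WT and 470, 493 and 519 in Sgo1-/+, with WT replicate 1 at 2.67 times that median. Camk2a, the postsynaptic kinase of excitatory forebrain neurons, had 3573, 31083 and 37029 in WT and 36720, 29744 and 37022 in Sgo1-/+, and was chosen after its values were seen, as were Grm5 and Grm4. Grin3a was lowest in Sgo1-/+ replicate 3. There the thalamus and hippocampus lists had median log2 ratios of 1.65 and 1.22 to the median of the 6 libraries. The oligodendrocyte and cortex lists stood at 0.75 and 0.38 in that library, and the olfactory bulb and striatum lists at -1.62 and -0.43. The part of these lists in the Grin3a value was not tested.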
